A study of Mus musculus with 6 samples.

Results

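Host cell factor 1 (HCF-1, gene Hcfc1), the zinc finger protein ZNF143 (mouse gene Zfp143) and the proteins that work with them were followed in mouse retina after deletion of Ronin. The group had 8 genes: Hcfc1 and Hcfc2, which encode the HCF proteins, the HCF-1 regulator gene Hcfc1r1, Zfp143 and its paralogue Zfp76, the HCF-1 bound enzyme genes Ogt and Bap1, and the corepressor gene Sin3a. Members were chosen by gene symbol. Of the 8, 7 were rows of the count table under their own symbol, and Zfp76 was read from the row Zfp523, which RefSeq pairs with the synonym Znf76. All 8, of 23441 genes in the table, passed the filter on low counts, which left 14609 genes for testing.

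The retinae were Ronin conditional knockouts (CKO) at embryonic day 14.5, of the genotype Chx10-Cre::GFP +/tg with Ronin flox/flox, and the controls were Ronin flox/flox retinae of the same age without Cre, with 3 RNA-seq libraries per genotype. Both genotypes carried the floxed Ronin (Thap11) alleles on a mixed background of C57/B6, SJL/B6, 129/Sv and FVB. Cre fused to GFP was driven by Chx10, a gene of retinal progenitors, and the labels call the deletion specific to these cells, while RNA was taken from whole dissected retinae. An effect of the Cre transgene itself cannot be told apart from that of the deletion, because no control carried it. The labels do not say how many animals went into a library or whether replicates were separate litters, and p-values therefore rest on how far the 6 libraries differ, some of which may be technical.

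Ronin is a DNA-binding protein of the THAP family that acts on promoters together with HCF-1, which does not bind DNA by itself but brings chromatin enzymes to factors that do. ZNF143 recognises a promoter element that overlaps the sequence bound by Ronin. The O-GlcNAc transferase OGT cuts the HCF-1 precursor into its mature subunits and also modifies it with sugar, BAP1 removes ubiquitin from histone H2A, and SIN3A is the scaffold of a histone deacetylase complex.

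The libraries held between 23721052 and 28504391 counted reads. Thap11 itself had 323, 292 and 156 reads in the CKO libraries, against 1739, 1880 and 1880 in the controls (log2 fold change -2.96 ± 0.24, SE, edgeR adjusted p = 0.00425). Markers of retinal progenitors summed to between 7791 and 8357 CPM (counts per 1000000 reads) in the CKO and between 8290 and 8570 CPM in the controls, and ganglion cell markers to between 1888 and 1912 CPM in the CKO and between 1837 and 2042 CPM in the controls, so both cell classes of an embryonic retina were present in every library. Control replicate 2 stood apart, with correlations of log2 CPM of 0.954 and 0.973 with the other controls. Its sum over 9 periocular mesenchyme markers was also the highest, 186 CPM, mostly from Col6a1 and Col1a2. That sum was 53.6 to 75.5 CPM in the CKO and 74.0 and 77.8 CPM in the other controls. Not all markers of the list were highest there. Col1a1 (9.77 CPM) and Col3a1 (6.95 CPM) were highest in CKO replicate 3, and Prrx1 was lowest in control replicate 2 (0.567 CPM). The defining genes Foxc1, Foxc2 and Twist1 were at most 1.18 CPM in any library. The 16 lens markers, none at 0 throughout a genotype, summed to between 66.3 and 9706 CPM in the CKO, highest in replicate 1, against 12.4 to 19.2 CPM in the controls, with all 14 tested markers at positive log2 fold changes and 0 called. Blood vessel markers summed to between 254 and 276 CPM in the CKO, against 292 to 350 CPM in the controls. Most of that sum was Kdr, and 9 of the 10 vessel genes had negative log2 fold changes, with a median of -0.52 and 0 called. Pigment epithelium markers summed to between 35.2 and 41.1 CPM in the CKO, against 81.3, 46.5 and 39.0 CPM in control replicates 1 to 3, with 6 of 7 tested genes negative, a median of -0.57 and 0 called. Control replicate 1, the highest for them, was also the highest library for Hcfc1r1. Microglia and macrophage markers summed to 42.2 to 53.9 CPM in the CKO and 40.1 to 50.9 CPM in the controls. The 9 red blood cell markers summed to 4.14 to 13.5 CPM in the CKO and 7.35 to 16.8 CPM in the controls. Of these markers 3, the globin genes Hba-a2, Hbb-bt and Hbb-bs, had 0 reads in every library, so the sums do not measure them. The 3 tested markers all had negative log2 fold changes with 0 called, and for 1 of them, Alas2, the groups did not overlap. The part of these tissues in the values given here was not tested.

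None of the 8 members passed the test between genotypes (edgeR quasi-likelihood test, Benjamini-Hochberg adjustment over all genes, threshold 0.05). Among all tested genes 131, or 0.897%, were called, with 28 higher and 103 lower in the CKO. DESeq2, with 313 calls among all genes, and limma-voom, with 120, also called 0 of the 8. With a library left out, edgeR called between 16 genes (without CKO replicate 3) and 219 (without control replicate 2), again with 0 members. By edgeR 1 member, Hcfc1r1, had an unadjusted p under 0.05, as 6.59% of all tested genes did. Log2 fold changes were negative for 4 members and positive for 4, with a median of 0.00338, beside a median of -0.03 over all tested genes. For 7 of the 8 the 95% interval of the fold lay within a 2-fold change in either direction, and Hcfc1r1 was the exception. CKO and control libraries did not overlap for 2 members, Hcfc1 and Hcfc1r1, both lower in the CKO. Among all tested genes 12.6% had groups that did not overlap. In retinal tissue, fewer cells that express a gene and less RNA per cell cannot be told apart.

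**Figure D1:**
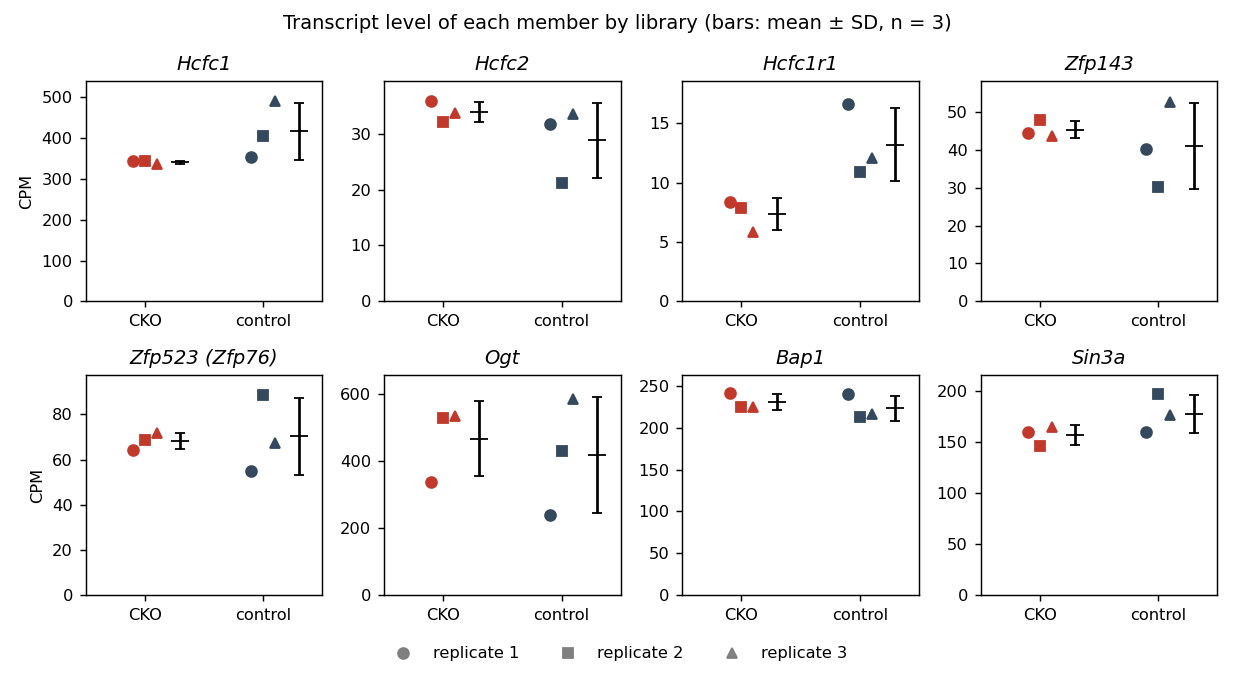
CPM (y axis, from 0) of the 8 members in 3 CKO libraries (red) and 3 control libraries (dark blue), with the marker shape giving the replicate and black bars the mean ± SD. The CKO points lie close together for Hcfc1, at 337 to 343 CPM, while those of Ogt spread from 338 to 534 CPM.

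**Figure D2:**
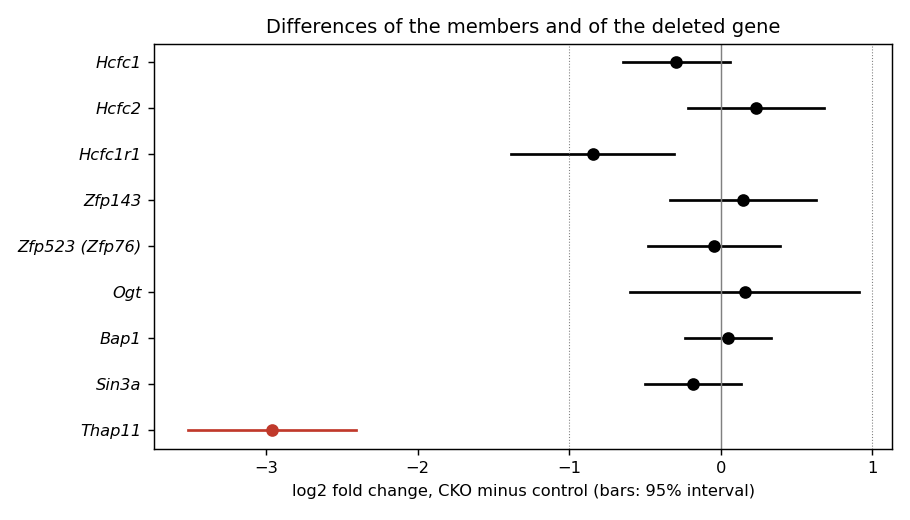
Log2 fold change, CKO minus control, of each member (black) and of Thap11 (red) with its 95% interval, and dotted lines at a 2-fold change. The interval of Hcfc1r1, -1.38 to -0.31, is the member interval that leaves out 0, and Thap11 lies at -2.96.

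Hcfc1, the X-linked gene of HCF-1 (GRCm38 chrX:73942792-73966357, minus strand), had 343, 343 and 337 CPM in CKO replicates 1 to 3, against 353, 406 and 492 CPM in control replicates 1 to 3. Every CKO library was below every control, but the gap to control replicate 1 was small and most of the difference came from control replicate 3. The means were 341 ± 3.50 CPM in the CKO and 417 ± 70.1 CPM in the controls (SD, n = 3 each), a log2 fold change of -0.29 ± 0.15 (SE, edgeR adjusted p = 0.875). Its fold, CKO over control, had a 95% interval of 0.640 to 1.04, so a loss of HCF-1 transcript as deep as that of Thap11 lies outside it. Without control replicate 3 the log2 fold change was -0.12.

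Hcfc2 encodes HCF-2, a smaller relative of HCF-1 that shares its kelch domain, and lies at chr10:82696160-82742428 on the plus strand. It had 35.8, 32.2 and 33.8 CPM in the CKO libraries, against 31.8, 21.2 and 33.5 CPM in the controls. The groups overlapped, and control replicate 2 was the lowest library. The log2 fold change was 0.24 ± 0.19 (SE, edgeR adjusted p = 0.940), with a fold interval of 0.862 to 1.61. It was 0.07 without control replicate 2 and 0.39 without control replicate 3.

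Levels of the related genes can be set side by side only per length. Per kilobase of exon, Hcfc1 stood at 40.8 ± 0.42 CPM in the CKO and 49.9 ± 8.39 CPM in the controls, and Hcfc2 at 6.18 ± 0.33 CPM in the CKO and 5.25 ± 1.22 CPM in the controls (SD, n = 3 each). Hcfc1 was thus the more abundant HCF transcript in all 6 libraries, by 6.28 to 6.99 times in the CKO and by 7.30 to 12.6 times in the controls. Per kilobase of coding sequence the ratio was smaller, 3.31 to 3.68 in the CKO and 3.84 to 6.63 in the controls.

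Hcfc1r1 encodes a small protein that binds human HCF-1 and affects its place in the cell, and lies at chr17:23673596-23675227 on the plus strand. It was the least abundant member by CPM and had the largest difference between genotypes. CKO replicates 1 to 3 had 8.34, 7.88 and 5.81 CPM (241, 211 and 142 reads), against 16.6, 10.9 and 12.1 CPM in control replicates 1 to 3 (424, 249 and 318 reads). All CKO libraries were lower than all controls. The means, 7.34 ± 1.35 CPM in the CKO and 13.2 ± 3.05 CPM in the controls, gave a 1.80-fold lower level in the CKO (log2 fold change -0.85 ± 0.23, SE) that missed the threshold (edgeR adjusted p = 0.299). The interval of the fold was 0.384 to 0.806. Over 13 alternatives the adjusted p lay between 0.0739 with DESeq2 and 0.9997 by edgeR without CKO replicate 3. The log2 fold change was negative each time, from -0.95 without control replicate 2 to -0.64 without control replicate 1. The exons of Hcfc1r1 and of Thoc6, on the opposite strand, shared 287 of the 958 exon bases of Hcfc1r1 in GENCODE, so that, without known strand handling, reads of the shared stretch may be given to either gene or to none. Thoc6, a subunit gene of the THO complex of mRNA export, stood at 39.5 ± 1.15 CPM in the CKO and 44.5 ± 5.75 CPM in the controls (log2 fold change -0.17, edgeR adjusted p = 0.940).

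The promoter of Hcfc1r1 is shown because it was the member promoter that held the Ronin and ZNF143 motif searched for. That motif was ACTACA followed, after any 2 bases, by TCCCA, on either strand, in windows of 250 bases before to 50 bases after the RefSeq start of each gene (GRCm38.p6). The 250 bases before the Hcfc1r1 start lie on the plus strand at chr17:23673358-23673607 and are given 5′ to 3′, with capitals for motif letters in 1 full copy and in partial copies that miss 1 and 2 letters.

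Hcfc1r1 upstream: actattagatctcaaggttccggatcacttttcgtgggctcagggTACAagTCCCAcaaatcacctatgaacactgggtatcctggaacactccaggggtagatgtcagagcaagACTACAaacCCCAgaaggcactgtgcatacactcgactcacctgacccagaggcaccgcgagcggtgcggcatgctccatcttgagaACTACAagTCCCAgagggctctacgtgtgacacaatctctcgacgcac

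The full copy ended 35 bases before the start of Hcfc1r1, the copy with 1 mismatch 122 bases before it and the copy with 2 mismatches 194 bases before it. All 3 ran in the direction of the gene. This stretch also lies inside the annotated Thoc6 gene, and the promoter window of Thoc6 held no full copy. Build GRCm38.p6 is not the mm9 build of the counts, and these coordinates belong to it alone.

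Among the other 7 members the best stretch in the promoter windows differed from the motif in 1 to 4 of its 11 fixed letters. These stretches are printed to show how far each member is from the motif, on the strand that reads like it, with matching letters in capitals (the pair of bases after ACTACA is free). Zfp523 and Ogt, with 7 and 8 equally distant stretches, are left out, and the one for Zfp143 is 1 of 2.
Hcfc1r1: ACTACAagTCCCA
Sin3a: ACTcCAaaTCCCA
Hcfc1: ACcACcgaTCgCA
Hcfc2: AtaACAgtTtCCA
Zfp143: ACTACgcccaCCt
Bap1: ACccCAtccCCCc

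Sin3a, with 1 mismatch at the far end of its window, came next to Hcfc1r1. Hcfc1 and Hcfc2 had 3 mismatches, and Zfp143, Zfp523, Ogt and Bap1 had 4. Of 11432 tested genes with a promoter window 3.62% held the full motif, 6.23% had at most 1 mismatch, 52.6% at most 3 and 97.6% at most 4. A stretch with 3 or 4 mismatches is therefore found in most promoters of this length.

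Of the genes that fell in the CKO, 60 of 88 with a window held the motif (68.2%), as did 6 of 21 genes that rose (28.6%). Hcfc1r1 was in the class of 414 tested genes with the motif, of which 60 were called lower, 6 higher and 348 neither. The median log2 fold change of that class was -0.25, with 283 of 414 below 0, beside -0.02 for the 11018 genes without the motif. At -0.85, Hcfc1r1 had 91 motif genes below it. The other members belonged to the 11018, and their log2 fold changes, -0.29 to 0.24, are given above one by one. A match is a description of the sequence and does not show binding in the retina.

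**Figure D3:**
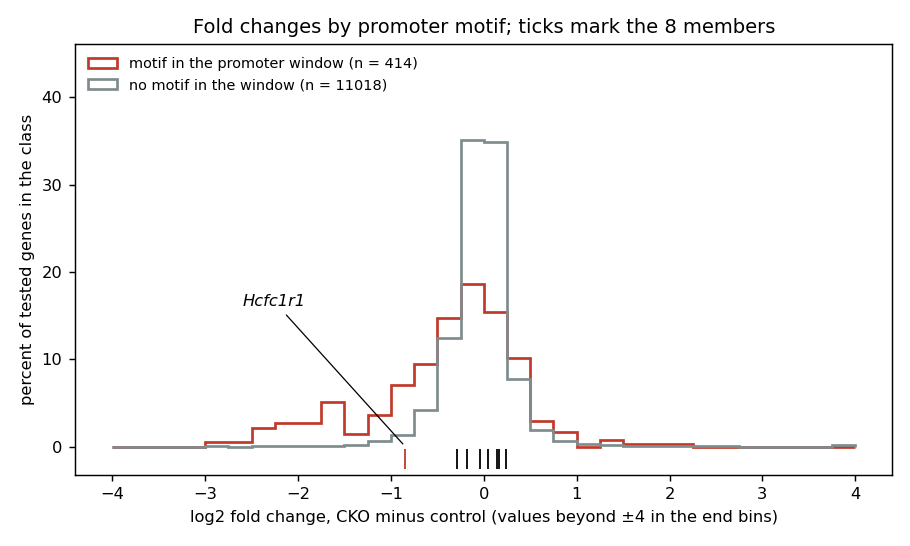
Distribution of log2 fold changes, CKO minus control, as the percent of tested genes per bin, for 414 genes with the motif in the promoter window (red) and 11018 without it (grey). Ticks under the curves mark the 8 members, with Hcfc1r1 in red at -0.85 and the others between -0.29 and 0.24.

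Zfp143, the gene of the zinc finger activator whose element overlaps the Ronin motif (chr7:110061217-110095394, plus strand), had 44.6, 47.8 and 43.6 CPM in CKO replicates 1 to 3, against 40.1, 30.1 and 52.7 CPM in the controls. The CKO values all lay within the range of the controls. The log2 fold change was 0.15 ± 0.21 (SE, edgeR adjusted p = 0.953), the fold interval was 0.792 to 1.54, and the log2 fold change was -0.02 without control replicate 2 and 0.40 without control replicate 3. Zfp523, the row read for Zfp76 and the closest relative of Zfp143 in the group (chr17:28177129-28205886, plus strand), had 64.4, 68.8 and 71.6 CPM in the CKO, against 54.9, 88.6 and 67.3 CPM in the controls. Here too the controls enclosed the CKO libraries, with control replicate 2 at the top where it had been at the bottom for Zfp143. Its log2 fold change was -0.04 ± 0.19 (edgeR adjusted p = 0.986, fold interval 0.719 to 1.31), and it was 0.17 without control replicate 2, -0.19 without control replicate 1 and -0.000154 without CKO replicate 1.

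Which of these paralogues was the more abundant depended on the length used. Per kilobase of exon, Zfp523 was at 0.574 to 0.655 times the level of Zfp143 in the CKO and at 0.509, 0.546 and 1.17 times in the controls. Per kilobase of coding sequence it was above Zfp143 in all 6 libraries, by 1.62 to 1.84 times in the CKO and by 1.43 to 3.30 times in the controls. The largest ratio on both scales was that of control replicate 2. Shared sequence was small: 2.10% of the stretches of 36 bases in Zfp143 transcripts and 5.74% of those in Zfp523 occurred in transcripts of another gene, all of them in an overlapping transcript of the other strand (AA474408 and AC126937.2) and none in the paralogue.

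Ogt, X-linked like Hcfc1, varied more between libraries than between genotypes. It lies at chrX:101640060-101684351 on the plus strand. It had 338, 527 and 534 CPM in CKO replicates 1 to 3, against 239, 430 and 584 CPM in control replicates 1 to 3. Replicate 1 was the lowest of its group in both genotypes, and control replicates 1 and 3 were the lowest and highest of all 6 libraries. The log2 fold change was 0.16 ± 0.32 (SE, edgeR adjusted p = 0.961) with the widest interval of the members, a fold of 0.662 to 1.88. It was -0.12 without control replicate 1, 0.52 without control replicate 3, and 0.35, 0.06 and 0.05 without CKO replicates 1, 2 and 3.

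The X-linked members were also set beside the genes that report the sex of the embryos in a library. Xist, the RNA of the inactive X chromosome, had 15115, 5972 and 8888 reads in the CKO libraries, against 36, 16912 and 31382 in the controls. The Y-linked gene Ddx3y had 1262, 1662 and 1360 reads in the CKO, against 1987, 586 and 970 in the controls. Control replicate 1 thus had almost no Xist and the most Ddx3y, and likewise the highest CPM of Uty and Kdm5d, while the other 5 libraries held RNA of both kinds. Eif2s3y, also Y-linked, was highest in CKO replicate 2, at 36.6, 69.4 and 58.7 CPM in the CKO, against 58.2, 35.7 and 40.5 CPM in the controls. Ogt was lowest of all libraries in control replicate 1, which was also the lowest control for Hcfc1. In the controls Xist (1.41, 738 and 1195 CPM in replicates 1 to 3), Ogt and Hcfc1 all rose in the same order. In the CKO Xist and Ogt did not, as replicate 2, with less Xist than replicate 1, had more Ogt. The part of sex in Ogt or Hcfc1 was not tested.

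Bap1 (chr14:31251450-31259944, plus strand) had the smallest spread over the libraries. It had 242, 225 and 225 CPM in the CKO libraries, against 240, 213 and 217 CPM in the controls, and the groups overlapped. Its log2 fold change was 0.05 ± 0.12 (SE, edgeR adjusted p = 0.966), and its fold interval of 0.848 to 1.26 was the narrowest of the 8. With a library left out, the log2 fold change lay between 0.01 (without CKO replicate 1) and 0.10 (without control replicate 1). Over all 6 libraries its highest and lowest levels differed by 1.14 times, against 2.87 times for Hcfc1r1 and 2.44 times for Ogt.

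Sin3a (chr9:57072040-57128366, plus strand) had 160, 146 and 165 CPM in CKO replicates 1 to 3, against 160, 198 and 176 CPM in the controls. CKO replicate 3 was above control replicate 1, so the groups overlapped. The log2 fold change was -0.18 ± 0.14 (SE, edgeR adjusted p = 0.940) and the fold interval 0.709 to 1.10. Without control replicate 2, the highest library, the log2 fold change was -0.09.

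Ordered by level per kilobase of exon in the CKO, the members ran from Ogt (57.9 ± 13.8 CPM) through Bap1 (49.3 ± 2.11), Hcfc1 (40.8 ± 0.42), Sin3a (29.1 ± 1.85), Zfp143 (13.01 ± 0.62), Zfp523 (7.82 ± 0.42) and Hcfc1r1 (7.66 ± 1.41) to Hcfc2 (6.18 ± 0.33, SD, n = 3 each). In the controls the same levels per kilobase of exon were 51.9 ± 21.5 CPM for Ogt, 47.7 ± 3.16 for Bap1, 49.9 ± 8.39 for Hcfc1, 33.03 ± 3.51 for Sin3a, 11.8 ± 3.25 for Zfp143, 8.04 ± 1.95 for Zfp523, 13.8 ± 3.18 for Hcfc1r1 and 5.25 ± 1.22 for Hcfc2. Their order by mean differed there, with Hcfc1 above Bap1 and Hcfc1r1 above Zfp143. In the CKO the spreads of neighbours overlapped between Ogt and Bap1, between Zfp523 and Hcfc1r1 and between Hcfc1r1 and Hcfc2. In the controls they overlapped among Ogt, Hcfc1 and Bap1, between Hcfc1r1 and Zfp143, between Zfp143 and Zfp523, and between Zfp523 and Hcfc2. Per kilobase of coding sequence Zfp523 stood above Zfp143 in the CKO and the other neighbours had the same order.

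In all 8 members the SD of log2 CPM was larger among the controls than among the CKO libraries, as it was for 87.5% of all tested genes. For Hcfc1 the SDs were 0.0149 in the CKO and 0.24 in the controls. For Hcfc1r1 they were 0.28 in the CKO and 0.32 in the controls, and for Bap1 0.0612 in the CKO and 0.0940 in the controls. Control replicate 2 was the lowest of all libraries for Hcfc2, Zfp143 and Bap1 and the highest for Zfp523 and Sin3a.

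**Figure D4:**
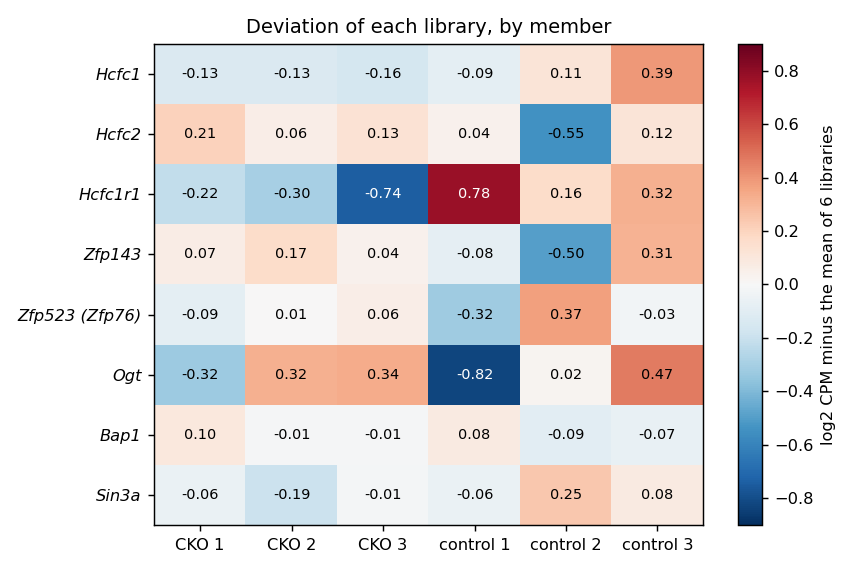
Log2 CPM of each member (rows) in each library (columns) minus its mean over the 6 libraries, in red above and blue below. Hcfc1r1 is below its mean in all 3 CKO libraries (-0.22, -0.30 and -0.74), and the deepest blue is that of Ogt in control replicate 1 (-0.82).

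The genes most like Hcfc1 over the 6 libraries, by the root mean square difference of centred log2 CPM among 10786 genes, were Vldlr (0.0462), Crybg3 (0.0496) and Ssh2 (0.0496). Vldlr, a receptor gene for lipoproteins and reelin, stood at 102 ± 1.35 CPM in the CKO and 119 ± 15.8 CPM in the controls. Among those most like Zfp143 were Senp7 (0.0465) and Gosr1 (0.0494), with Senp7, a SUMO protease gene, at 69.9 ± 2.36 CPM in the CKO and 64.3 ± 17.3 CPM in the controls. None of these genes was called.

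The partner lists numbered 6, with 62 tested genes. The O-GlcNAc list among them holds genes tied to OGT rather than partners of HCF-1 itself. Of the 62, 0 were called by edgeR, 0 by limma-voom and 1, Men1, by DESeq2. By edgeR 4 had an unadjusted p under 0.05, and 10 had groups that did not overlap. Over all tested genes these shares were 6.59% and 12.6%, so both counts were near the background. In the SET1 and MLL histone methyltransferase complexes, which HCF-1 brings to promoters, 11 genes had a median log2 fold change of -0.03, with 4 above 0 and 7 below. Men1, the menin gene, was at 177 ± 3.45 CPM in the CKO and 125 ± 5.79 CPM in the controls, or 0.50 ± 0.12 on the log2 scale (SE, edgeR adjusted p = 0.198, and 0.00534 to 0.962 under its alternatives, lowest with DESeq2), and all CKO libraries were above all controls. Without control replicate 2 edgeR called Men1 (adjusted p = 0.04999). Wdr82, the most abundant gene of that list, was at 322 ± 15.9 CPM in the CKO and 309 ± 40.4 CPM in the controls.

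The 15 further genes of the SIN3 deacetylase complex had a median log2 fold change of -0.07, with 4 above 0 and 11 below. Ing2, its subunit that reads methylated histone H3, was at 16.1 ± 0.82 CPM in the CKO and 22.3 ± 5.34 CPM in the controls (log2 fold change -0.47, edgeR adjusted p = 0.730), and the histone-binding gene Rbbp4 at 401 ± 11.4 CPM in the CKO and 404 ± 122 CPM in the controls. For 8 partners of BAP1 the median was 0.12, with 6 above 0 and 2 below. Asxl1, which activates BAP1, was at 125 ± 5.13 CPM in the CKO and 180 ± 31.7 CPM in the controls (log2 fold change -0.53, edgeR adjusted p = 0.400), with groups that did not overlap, and Foxk2, a forkhead factor, was at 167 ± 6.79 CPM in the CKO and 155 ± 21.8 CPM in the controls.

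The 6 genes of the NSL acetyltransferase complex had a median of -0.12 with 5 below 0, and Kansl1, a scaffold of the complex, stood at 195 ± 1.64 CPM in the CKO and 177 ± 22.8 CPM in the controls. The O-GlcNAc list held 6 genes besides Ogt, namely Mgea5 and genes for making the sugar donor of OGT. Their median was 0.03, with 4 above 0 and 2 below. Mgea5, the gene of the enzyme that removes the sugar OGT adds, was at 365 ± 12.7 CPM in the CKO and 441 ± 60.3 CPM in the controls (log2 fold change -0.27, edgeR adjusted p = 0.875), with all CKO libraries below all controls. The 16 transcription factors and coactivators that bind HCF-1 had a median of -0.08, with 5 above 0 and 11 below, Myc at 8.71 ± 0.31 CPM in the CKO and 10.5 ± 1.78 CPM in the controls, and Sp1 at 150 ± 3.74 CPM in the CKO and 160 ± 35.1 CPM in the controls. Of 3 THAP genes with a reported link to HCF-1, Thap11 fell, and Thap1 (log2 fold change -0.07) and Thap3 (-0.40) did not pass.

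**Figure D5:**
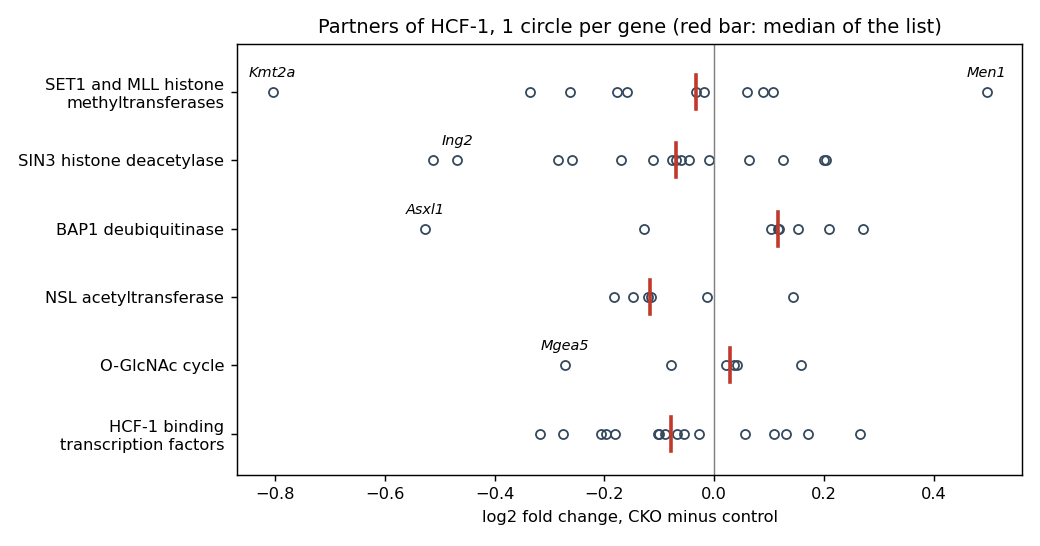
Log2 fold change, CKO minus control, of 62 genes in 6 lists of HCF-1 partners and O-GlcNAc genes (1 open circle per gene). A red bar marks each list's median. Medians lie between -0.12 and 0.12, and Men1 (0.50) and Kmt2a (-0.81) are the extremes.

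Of the 48 genes in these lists with a promoter window, O-GlcNAc genes included, 2 held the full motif. That was 4.17%, beside 3.62% of all tested genes. They were Asxl1, at the -0.53 given above, and Arid4b, a subunit gene of the SIN3 complex, at -0.08 on the log2 scale (edgeR adjusted p = 0.958).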

How the data were processed

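RNA was poly-A selected and made into Illumina libraries, per the labels' protocols. The authors deposited 1 table of raw read counts per gene symbol for 6 libraries. BWA 0.7.6a-r433, HTSeq 0.5.4p3, DESeq 2.13 and mm9 are named in the submitters' processing notes, without roles or settings. Neither the annotation nor the strand handling was given in the sources used here. Of the table, 4 lines that hold no gene were skipped and 1 repeated gene was kept once.

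Counts were filtered with filterByExpr (minimum count 10), scaled by TMM and tested with edgeR 4.0.16 (R 4.3.3; quasi-likelihood F test, genotype only) across 14609 genes, with Benjamini-Hochberg adjustment. Each SE is |log2 fold change|/sqrt(F), and 95% intervals use the t quantile of the fit. CPM use TMM-scaled library sizes. DESeq2 1.42.0 and limma-voom (limma 3.58.1) were alternatives, and the tests were tried on simulated data. Every pair of libraries differed by more than sampling noise (chi-square per degree of freedom at least 5.77). Lengths, overlaps and stretches of 36 bases came from GENCODE (GRCm38), promoter windows and synonyms from RefSeq (GRCm38.p6), matched by symbol for 11432 tested genes, all 8 members included. Members and lists were chosen with earlier results of these data known. Genes named were the members, Thap11, Xist and Y-linked genes, the 3 genes most like Hcfc1 and Zfp143 each (1 is not reported here), and from each partner list the called genes or else the one with the lowest p and the most abundant one. Arid4b, Kmt2a, Thoc6 and the genes most like Ogt were named after their values were seen. Alternatives were other scalings, tests and filters, the replicate block, coding lengths and leaving out each library.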

Additional observations from a re-analysis of the deposited data

How the results depend on the processing

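No member was called under any of 13 alternatives (DESeq2 size factors, library sizes alone, DESeq2's Wald test, limma-voom, no filter, at least 1 CPM in 3 or more libraries, the replicate block, and leaving out each library). Log2 fold changes turned sign for Zfp523 with library sizes alone (0.0437) and, with a library left out, ranged from -0.19 to 0.17 for Zfp523, -0.12 to 0.52 for Ogt and -0.0219 to 0.40 for Zfp143. The cause was not tested. Calls among all genes, 131, were 313 with DESeq2 and 16 to 219 with a library left out, fewest without CKO replicate 3 and most without control replicate 2. Partner calls were 1 with DESeq2 and 0 to 1 with a library left out. With the replicate number as a replicate block, 153 genes were called and Hcfc1r1 was at -0.84 (edgeR adjusted p = 0.196). The labels tie same-numbered libraries by the number alone, and whether these libraries were matched is not known. Deviations of same-numbered libraries correlated at 0.34, 0.11 and -0.00775, and 2 of 6 libraries correlated best with their own number. Hcfc1r1 had the fewest reads of the members, 142 to 424 per library.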

Other observations

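Kmt2a, the histone methyltransferase gene also known as MLL1, was singled out after its values were seen, as the partner gene with the lowest log2 fold change. It had 203, 156 and 138 CPM in CKO replicates 1 to 3, against 215, 361 and 291 CPM in the controls (log2 fold change -0.81 ± 0.23, SE, edgeR adjusted p = 0.331, range 0.0797 to 0.9999 over 13 alternatives). All CKO libraries were below all controls, and it was lower in the CKO under each alternative, with 0 calls. Its promoter window held no full Ronin motif, with 4 mismatches at best.

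Genes with a pattern like that of Ogt were also looked up after its spread between libraries was seen. The closest were Zmym6 (root mean square difference 0.0833), Cox20 (0.0993) and Plekha1 (0.0994), with Zmym6 at 55.5 ± 12.1 CPM in the CKO and 44.6 ± 17.2 CPM in the controls. The levels of Ogt and Hcfc1 per kilobase of exon did not keep a fixed ratio: Ogt was at 1.02, 1.60 and 1.65 times the level of Hcfc1 in CKO replicates 1 to 3, and at 0.703, 1.10 and 1.23 times in control replicates 1 to 3.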
